A study of Mus musculus with 3 samples.

Results

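F-box genes other than the atrophy-linked members Fbxo21, Fbxo30, Fbxo31, Fbxo32 and Fbxo40 were examined in mouse muscle lacking Foxo1. They were chosen by symbol, as genes named Fbxl, Fbxo or Fbxw with a number. The arrays carried 71 such genes, measured by 92 probes, among 32395 genes in all. Because the scanner files hold no gene symbols, each probe was named through its accession in a RefSeq table. One of the 71, Fbxl12os, is an RNA gene on the strand opposite Fbxl12 and not an F-box gene, although its symbol fits the pattern.

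Muscle RNA of both genotypes was compared on 3 Agilent whole-mouse arrays, each with a red and a green channel. The mFoxO1KO mice carried an inducible, skeletal muscle-specific deletion of Foxo1, and the control mice carried no such deletion per the labels. Every mouse was a male C57BL/6 animal given an AIN93G diet with doxycycline at 0.625 g/kg between 8 and 14 weeks of age, so the drug was shared by both groups. Each array paired lower-limb muscle RNA of 1 of 3 mFoxO1KO mice in Cy5 with that of 1 of 3 control mice in Cy3. The promoter that drives the deletion is not given in the sources used here. No array had the dyes swapped, so a dye effect of a single probe and genotype cannot be told apart. Values below are log2 ratios of mFoxO1KO over control, with the SD over the 3 arrays, or normalised log2 intensities of each channel.

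F-box proteins are the substrate receptors of SCF ubiquitin ligases. The F-box binds Skp1, which joins the receptor to the scaffold Cul1 and the RING subunit Rbx1, and a second domain picks the protein to be ubiquitinated. The class letter names that domain: leucine-rich repeats in Fbxl, WD40 repeats in Fbxw, and other or unnamed domains in Fbxo. In muscle the best known F-box gene is Fbxo32 (atrogin-1), a target of FoxO factors during atrophy, and the question here is what its relatives did when Foxo1 was deleted.

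The targeted gene was lower on every array. Foxo1 had log2 ratios of -1.50, -2.42 and -2.27, a mean of -2.06 ± 0.49, leaving 23.9% of the level in control muscle (limma, adjusted p = 0.0278). This direction is that of the labels on all 3 arrays. Whether the deletion removes the stretch that the Foxo1 probe reads was not tested. Skeletal muscle fibre genes were bright in both channels, with mean levels of 16.18 to 16.24 in mFoxO1KO muscle and 16.04 to 16.14 in control muscle over 8 tested markers of 9. The mFoxO1KO channel had 56.05% to 56.89% of its probes above background and the control channel 52.04% to 55.93%, with 0 spots saturated. Of all 17460 genes tested, 481 (2.75%) passed an adjusted p of 0.05, 359 higher (2.06%) and 122 lower (0.699%) in mFoxO1KO muscle. Of those higher, 84 came from 1048 genes above background on all mFoxO1KO but not all control channels, a set with 0 lower. Of 16306 genes above background in both channels on all arrays, 397 passed (2.43%), 275 higher and 122 lower. With median centring in place of loess the split over all 17460 genes was 1153 higher and 51 lower, and their median log2 ratio was 0.156. Ratios given below with median centring carry this upward shift, whatever their sign. An unadjusted p under 0.05 was reached by 26.8% of genes. Markers of fat differed between the arrays more than any F-box gene did. The 8 tested adipocyte markers of 10 had median log2 ratios of 2.97, 0.21 and 1.84 on arrays 1, 2 and 3, with mean levels of 11.62 to 13.18 in mFoxO1KO muscle and 10.31 to 11.26 in control muscle, while Lep and Ucp1 were too dim to test. The 5 tested macrophage markers had medians of -0.04, 0.63 and 0.58. Those of the 6 endothelial markers were 0.23, 0.09 and 0.13, and those of the 5 fibroblast markers 0.38, -0.04 and 0.13. The 2 erythroid markers had 0.85, 0.07 and -0.18, and the 4 neuron and Schwann cell markers 0.06, 0.52 and -0.05. The part of these cells in the F-box values was not tested. In whole muscle, fewer cells of a type and less RNA per cell cannot be told apart.

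Of the 71 genes, 48 were tested: 16 of 19 Fbxl, 24 of 31 Fbxo and 8 of 21 Fbxw genes. All 48 were well above background in both channels on all 3 arrays. The other 23 were too dim, and 20 of them were above background on no array in either channel. They included the neuronal gene Fbxo41 and Fbxo43, an inhibitor of the anaphase-promoting complex in the germ line. Most of them were Fbxw genes. Fbxw10 and Fbxw21 were above background on 2 arrays in each channel, and Fbxl13 on 1 array in the mFoxO1KO channel alone. Of 20 genes on the array listed for germ-line roles or as members of the Fbxw12 to Fbxw28 series, only Fbxw17 and Fbxo39 were tested. Fbxw17 had a log2 ratio of 0.12 ± 0.04 (limma, adjusted p = 0.232), and Fbxo39 of -0.17 ± 0.07 (adjusted p = 0.16). Fbxo39 was dim, with mean levels of 6.95 in mFoxO1KO and 7.12 in control muscle, and had -0.477 with the deposited log ratio.

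No F-box gene passed the threshold in either direction (limma, 0 higher and 0 lower of 48). Beside this, 2.75% of all genes passed, and 2.43% of those above background in both channels on all arrays. At an unadjusted p under 0.05 there were 7 higher and 7 lower, or 14 of 48, beside the 26.8% of all genes. The nearest were 6 genes with an adjusted p under 0.1, and the smallest adjusted p was 0.0686. The ratios lay on both sides of 0, with a median of 0.008, beside 0.006 for all genes tested, 27 means above 0 and 21 below. The medians on the 3 arrays were 0.03, 0.02 and 0.01. By class the medians were 0.002 for Fbxl, 0.017 for Fbxo and 0.007 for Fbxw genes. Ratios were above 0 on all arrays for 14 genes, beside 27.9% of all genes, and below 0 on all arrays for 12, beside 24.5%. Levels in the 3 mFoxO1KO channels lay entirely above the 3 control channels for 8 genes, beside 14% of all genes, and entirely below for 5, beside 11.9%. Among the 16306 genes above background in both channels on all arrays, 4377 were above 0 and 4169 below 0 on every array. Levels without overlap were higher in mFoxO1KO muscle for 2119 of them and lower for 2007.

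With the main processing the ratios were small. Of the 48 genes chosen by symbol, 12 (25%) had a mean over 0.2 in absolute log2 value, beside 26% of all genes. Only 2 (4.17%) exceeded 0.3, beside 13.1%, and 0 exceeded 0.5, beside 4.86%. These shares are a description, with no test of their difference. One of the 2 over 0.3 was the RNA gene Fbxl12os. Without it 1 of 47 genes exceeded 0.3 (2.13%), the mean ratios ranged between -0.36 and 0.29, and the median was 0.014. The median SD was 0.092 for the F-box genes and 0.113 for all genes. For 44 of the 48 the 95% confidence interval of the log2 ratio lay inside ±0.5, which is 1.414-fold in either direction, and for 47 inside ±1. These counts and intervals hold for the main processing only, in which the ratios of dim genes are compressed. With the scanner software's processed signals the dim genes Fbxl22 and Fbxo2 had -0.732 and 0.621. With the deposited log ratio they had -0.773 and 0.581, so both exceeded 0.5 in absolute value in either setting. The smallest absolute log2 ratio of any gene past the threshold was 0.36, so differences of the size seen here were mostly not detectable with 3 arrays.

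**Figure D1:**
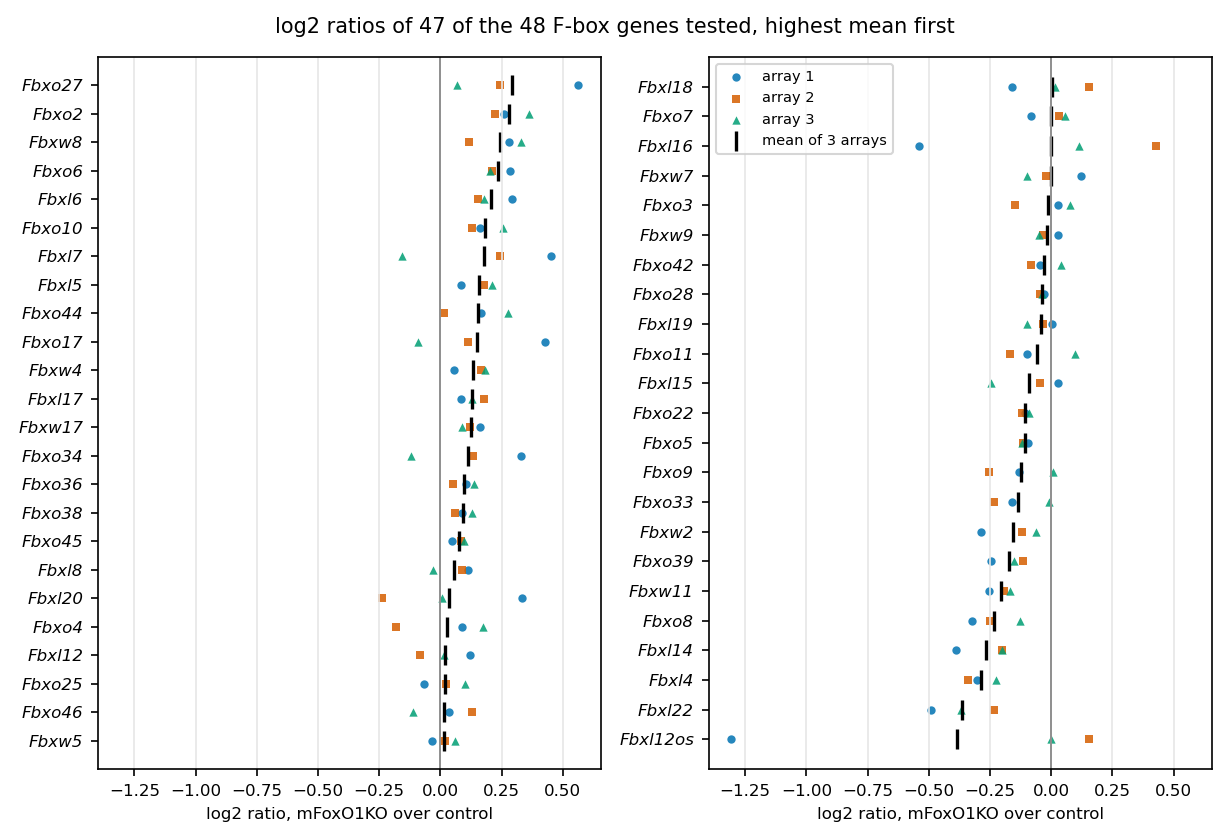
The log2 ratio of mFoxO1KO over control (horizontal axis) for 47 of the 48 F-box genes tested, with 1 point per array and a bar at the mean of the 3 arrays, ordered from the highest mean to the lowest. Means run between 0.29 for Fbxo27 and -0.38 for Fbxl12os, and the wide spread of Fbxl12os comes from array 1.

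The receptors listed as the sugar-binding group lay in the upper part of this range. Fbxo2, Fbxo6, Fbxo17, Fbxo27 and Fbxo44 share the F-box-associated domain through which Fbxo2 and Fbxo6 bind high-mannose glycans on glycoproteins exported from the endoplasmic reticulum for degradation. All 5 were tested and all 5 means were above 0, 4 of them on every array, beside 27.9% of all genes, with a median of 0.234, beside 0.006 for all genes tested, and array medians of 0.29, 0.21 and 0.20. None passed the threshold, and 3 had an unadjusted p under 0.05, beside 26.8% of all genes. The group was defined by its shared domain and not by sugar binding shown for each gene. Its position was known when it was singled out, and no test of the group was made.

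Fbxo2 had levels of 7.17, 7.22 and 7.39 in mFoxO1KO muscle, against 6.91, 6.99 and 7.03 in control muscle. The levels did not overlap. Its log2 ratios were 0.26, 0.22 and 0.36, a mean of 0.28 ± 0.07, which is 121.5% of the level in control muscle (limma, adjusted p = 0.0782, 95% interval 0.13 to 0.44). Fbxo2 was dim, and its ratio grew to 0.621 with the scanner software's processed signals, with an adjusted p of 0.0729. Fbxo6 had levels of 13.04, 13.02 and 13.16 in mFoxO1KO muscle, against 12.76, 12.80 and 12.96 in control muscle. These did not overlap either. Its mean ratio was 0.23 ± 0.04, with 0.29, 0.21 and 0.20 on the arrays (limma, adjusted p = 0.0919, 95% interval 0.09 to 0.38). Fbxo27, known for tagging glycoproteins exposed on damaged lysosomes, had levels of 7.43, 7.43 and 7.48 in mFoxO1KO muscle, against 6.87, 7.18 and 7.41 in control muscle. The mFoxO1KO levels were nearly equal and the control levels were spread, so the ratio varied with the control channel, at 0.56, 0.24 and 0.07. Its mean of 0.29 ± 0.25 was the highest of all F-box genes and had an adjusted p of 0.173 (limma). Fbxo44 had ratios of 0.17, 0.01 and 0.27, a mean of 0.15 ± 0.13 (limma, adjusted p = 0.252), and its second probe 0.06 ± 0.02. Fbxo17 had 0.43, 0.11 and -0.09, so its mean of 0.15 ± 0.26 rested on array 1, and its second probe gave 0.01.

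The 5 genes lie in 2 clusters, which the symbols alone do not show. In the RefSeq table Fbxo6, Fbxo44 and Fbxo2 are consecutive protein-coding genes on chromosome 4, and Fbxo27 and Fbxo17 are neighbours on chromosome 7. The promoter windows of Fbxo2 and Fbxo6, the pair with the steadiest ratios of the group, are shown so that they can be set against those of the lowest genes further on. Each window covers 250 bases before the transcription start and the first 50 transcribed bases, which are in capitals (RefSeq, GRCm38.p6, 5′ to 3′ on the gene's strand).
Fbxo2, chr4:148160418-148160717, plus strand: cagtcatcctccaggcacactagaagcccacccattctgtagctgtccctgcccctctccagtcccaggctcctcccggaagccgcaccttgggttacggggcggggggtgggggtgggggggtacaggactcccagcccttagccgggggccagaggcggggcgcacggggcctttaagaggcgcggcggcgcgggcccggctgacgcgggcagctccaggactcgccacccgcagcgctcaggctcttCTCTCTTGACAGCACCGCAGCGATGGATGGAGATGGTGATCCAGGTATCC
Fbxo6, chr4:148152086-148152385, minus strand, the first of 3 annotated windows: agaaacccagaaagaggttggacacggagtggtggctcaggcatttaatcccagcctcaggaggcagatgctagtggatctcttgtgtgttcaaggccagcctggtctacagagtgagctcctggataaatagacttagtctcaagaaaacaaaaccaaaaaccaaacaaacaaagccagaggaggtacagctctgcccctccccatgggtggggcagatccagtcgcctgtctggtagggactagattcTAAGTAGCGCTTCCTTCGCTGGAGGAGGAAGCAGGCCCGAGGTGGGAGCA
GC made up 69.0% of the Fbxo2 window and 53.0% of the Fbxo6 window, beside a median of 52.7% over 32851 windows of all genes.

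**Figure D2:**
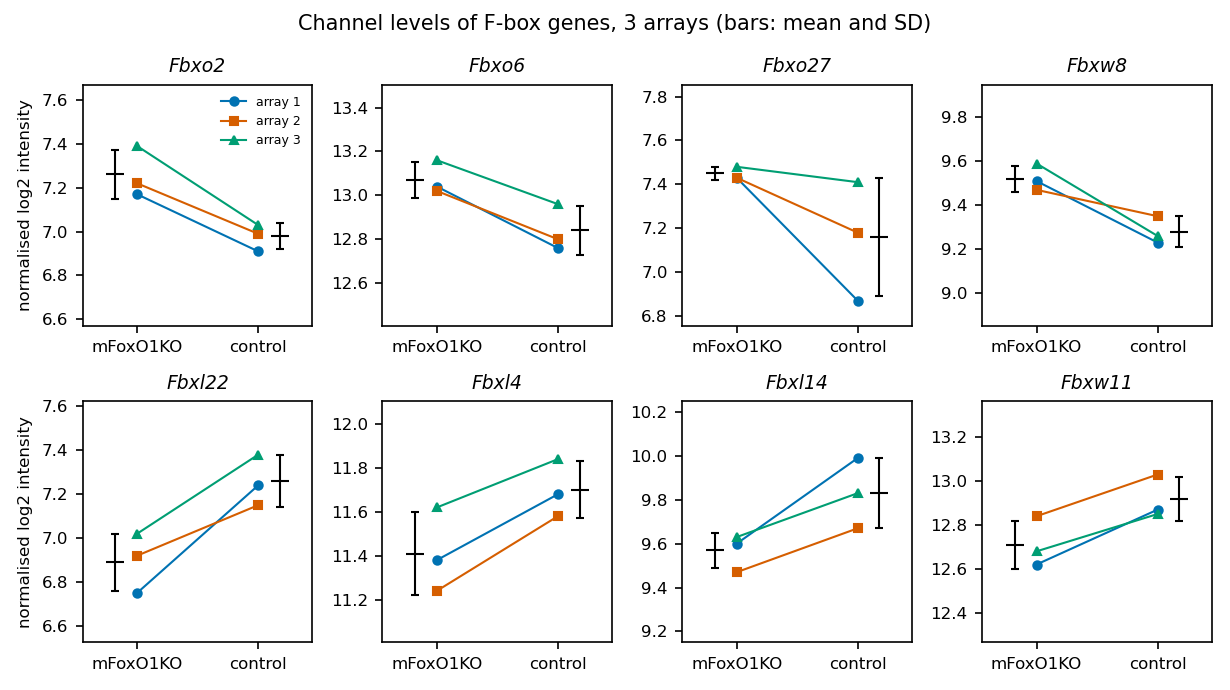
Normalised log2 intensity in the mFoxO1KO and the control channel for 8 F-box genes, with 1 line per array and the mean and SD of each group beside it. In the upper row every line falls toward the control side, and in the lower row every line climbs toward it, while for Fbxo27 the mFoxO1KO points coincide near 7.43 and the control points are spread.

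Receptors tied to muscle, mitochondria and metabolism went both ways. Of 9 genes, all tested, 5 means were above 0 and 4 below, with a median of 0.001, and 2 in each direction had an unadjusted p under 0.05, beside 26.8% of all genes in both directions together. The lowest was Fbxl22, which in the heart is known to bind sarcomeric proteins at the Z-disc, among them alpha-actinin. It had levels of 6.75, 6.92 and 7.02 in mFoxO1KO muscle, against 7.24, 7.15 and 7.38 in control muscle. Every mFoxO1KO level was below every control level. The ratios were -0.49, -0.24 and -0.37, a mean of -0.36 ± 0.13, which is 77.7% of the level in control muscle (limma, adjusted p = 0.0686, 95% interval -0.55 to -0.18), the smallest adjusted p of any F-box gene. Fbxl22 was dim as well: with the processed signals its ratio was -0.732 and its adjusted p 0.0235, past the threshold, and with between-array scaling its adjusted p was 0.0484. A second Fbxl22 probe, above background on 1 mFoxO1KO array and 0 control arrays, was not used and had 0.37, 0.10 and -0.17.

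Fbxl4, a mitochondrial protein that holds back mitophagy and whose loss in humans depletes mitochondrial DNA, had levels of 11.38, 11.24 and 11.62 in mFoxO1KO muscle, against 11.68, 11.58 and 11.84 in control muscle. The groups overlapped, yet within each array the mFoxO1KO channel was lower, with ratios of -0.30, -0.34 and -0.22. The mean was -0.29 ± 0.06 (limma, adjusted p = 0.0709, 95% interval -0.44 to -0.14). Its second probe gave only -0.06 ± 0.06. With median centring in place of loess the ratio was -0.071, beside a median of 0.156 for all genes in that setting. Fbxw8, which works with the scaffold Cul7 in place of Cul1, had levels of 9.51, 9.47 and 9.59 in mFoxO1KO muscle, against 9.23, 9.35 and 9.26 in control muscle. The levels did not overlap, and the mean ratio was 0.24 ± 0.11 (limma, adjusted p = 0.112). Its ratios of 0.28, 0.12 and 0.33 were lowest on array 2, where the adipocyte markers were lowest too. The part of fat cells in this was not tested. The second Fbxw8 probe had 0.34, -0.09 and -0.02. Fbxl5, the iron-sensing receptor of iron regulatory proteins, had 0.16 ± 0.06 (limma, adjusted p = 0.177), and the rest of the group lay closer to 0. Fbxl17, a quality-control receptor of BTB-domain dimers, had 0.13, Fbxo25 and Fbxo7, a partner of Parkin in mitophagy, had 0.02 and 0.00, Fbxo28 had -0.04 and Fbxo9 -0.13. These last 5 genes were named to complete the group.

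The promoter windows of Fbxl22 and Fbxl4, the F-box genes with the smallest adjusted p-values, are shown on the same plan as above.
Fbxl22, chr9:66514544-66514843, minus strand: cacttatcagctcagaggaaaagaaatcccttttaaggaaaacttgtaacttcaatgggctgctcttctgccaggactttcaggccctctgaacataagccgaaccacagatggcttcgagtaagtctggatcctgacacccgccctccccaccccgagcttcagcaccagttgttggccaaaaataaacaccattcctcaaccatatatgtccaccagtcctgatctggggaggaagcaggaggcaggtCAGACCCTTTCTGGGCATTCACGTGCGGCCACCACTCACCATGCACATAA
Fbxl4, chr4:22357293-22357592, plus strand: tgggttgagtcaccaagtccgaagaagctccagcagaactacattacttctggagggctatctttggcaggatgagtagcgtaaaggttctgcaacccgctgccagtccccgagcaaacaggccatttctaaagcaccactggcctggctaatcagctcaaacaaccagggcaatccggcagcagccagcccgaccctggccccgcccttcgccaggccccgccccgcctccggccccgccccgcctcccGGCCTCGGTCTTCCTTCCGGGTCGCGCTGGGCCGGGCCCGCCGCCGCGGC
The exact FoxO recognition sequence GTAAACA (or its complement TGTTTAC) was found in none of the 4 windows shown. It was found in 0 of the 72 windows available for 52 F-box genes, and in 3.65% of the 32851 windows of all genes. The related insulin-response sequence CAAAACA (or TGTTTTG) was found in 3 of the 72, those of Fbxl20, Fbxo4 and Fbxw7, and in 6.28% of all windows. GC made up 51.3% of the Fbxl22 window and 66.0% of the Fbxl4 window. The F-box windows had a median GC of 58.7%, beside 52.7% for all, and 37 of the 52 genes were tested. Only these exact sequences and their complements were searched. Sequences that differ from GTAAACA in a single base were not counted. The windows shown hold such sequences for lower and higher genes alike, among them ATAAACA in Fbxl22, GCAAACA in Fbxl4 and GAAAACA in Fbxo6. A match or its lack describes these letters in this window only.

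Cell-cycle receptors lay near 0. Of 10 genes 8 were tested, with 4 means above 0, 4 below and a median of 0.009. Only 1 had an unadjusted p under 0.05, beside 26.8% of all genes. That gene was Fbxw11, one of the 2 beta-TrCP proteins that act on beta-catenin and IkappaB, with levels of 12.62, 12.84 and 12.68 in mFoxO1KO muscle, against 12.87, 13.03 and 12.85 in control muscle. Its mean was -0.20 ± 0.04 (limma, adjusted p = 0.11), and its second probe gave -0.04. With median centring its ratio was 0.046, still below the median of 0.156 that all genes had in that setting. Fbxw7, the receptor of cyclin E, Myc and Notch, which was picked out after its values were seen, had 0.12, -0.02 and -0.10, a mean of 0.00 ± 0.11, while its second probe gave -0.15 ± 0.05. Fbxo5, the inhibitor of the anaphase-promoting complex also called Emi1, had -0.11 ± 0.01 (limma, adjusted p = 0.268). Fbxo5 was dim, with mean levels of 6.79 in mFoxO1KO and 6.90 in control muscle, and had -0.214 to -0.069 in the alternatives. Fbxl15 had -0.09 ± 0.14, or 0.104 with median centring. Fbxl7, a receptor of Aurora A, had 0.45, 0.24 and -0.16 (mean 0.18, limma, adjusted p = 0.406). The signs of Fbxl7 were not shared by the 3 arrays. Fbxl8, Fbxo4 and Fbxl12 had means of 0.06, 0.03 and 0.02.

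Receptors known from neurons were close to 0 apart from Fbxo2, which is also a brain gene. Of 5 genes 4 were tested, with a median of 0.055. Fbxo45, which acts at synapses with Mycbp2, had 0.08 ± 0.02, but -0.016 with the processed signals and -0.056 with the deposited log ratio. Fbxl20, a receptor of the vesicle protein Rim1, had 0.03 ± 0.29 with a second probe at 0.06, and -0.115 without array 1. Fbxl16, which is known for binding the phosphatase PP2A, was the least reproducible gene of the group, with -0.54, 0.43 and 0.11 on the arrays, a mean of 0.00 ± 0.50.

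The remaining 20 tested genes of 22 belong to none of these groups and had a median of -0.017, 9 means above 0 and 11 below. The highest was Fbxl6 at 0.21 ± 0.07 (limma, adjusted p = 0.119), with levels of 8.31, 8.29 and 8.39 in mFoxO1KO muscle, against 8.02, 8.14 and 8.21 in control muscle. Fbxo10, a receptor of Bcl2, followed at 0.18 ± 0.07 (adjusted p = 0.142). Both had levels that did not overlap. Fbxl14, which in human cells marks the transcription factor Snail, had levels of 9.60, 9.47 and 9.63 in mFoxO1KO muscle, against 9.99, 9.67 and 9.83 in control muscle. These did not overlap, and the mean was -0.26 ± 0.11 (limma, adjusted p = 0.0992). Fbxo8, which carries a Sec7 domain and acts on the GTPase Arf6, had -0.23 ± 0.10 (adjusted p = 0.112) and -0.04 with a second probe. With median centring, which raised the median of all genes, Fbxl6 had 0.362, Fbxo10 0.364, Fbxl14 -0.066 and Fbxo8 -0.024. The lowest mean of all belonged to Fbxl12os, at -0.38 ± 0.80 (adjusted p = 0.451). Its levels were 11.87, 12.06 and 11.89 in mFoxO1KO muscle, against 13.18, 11.91 and 11.89 in control muscle, so 1 control channel decided the mean, and without array 1 the ratio was 0.077. The other genes of this set were nearer to 0 and were named to complete it. Fbxw4, whose human relative is linked to limb malformation, had 0.13 ± 0.07, and Fbxo38, a receptor of PD-1 in T cells, had 0.09 ± 0.03. Levels of Fbxo38 did not overlap, at 11.66, 11.62 and 11.64 in mFoxO1KO muscle, against 11.58, 11.56 and 11.52 in control muscle, although its adjusted p was 0.347 (limma). Fbxo34 had 0.33, 0.13 and -0.12, so its sign was not shared. Fbxo36 had 0.10, Fbxo46 0.02, Fbxw5 0.01 and Fbxl18 0.00. Below 0 lay Fbxo33 at -0.13, Fbxo22 at -0.11 and Fbxo11, a receptor of Bcl6, at -0.06. Fbxl19 had -0.04, Fbxo42 -0.03, Fbxw9 -0.02 and Fbxo3 -0.01.

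For 10 F-box genes 2 probes were above background, and the choice of probe mattered for the size of a ratio. The probes were never more than 1 apart, the widest gap being 0.23 for Fbxl4, and only Fbxw2 had means of opposite sign, at -0.16 for the brighter probe and 0.02 for the other. With median centring the brighter Fbxw2 probe had 0.02 as well, below the median of 0.156 for all genes in that setting. In Fbxl4, Fbxo8, Fbxo17, Fbxo44, Fbxw11 and Fbxw8 the second probe kept the sign and lay nearer to 0.

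**Figure D3:**
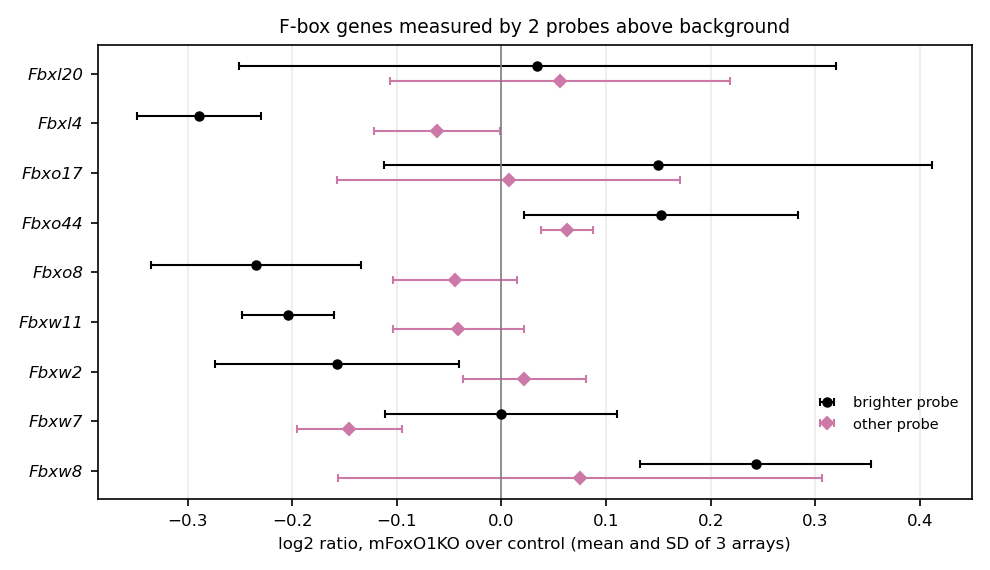
Mean log2 ratio and SD over 3 arrays for each probe of 9 of the 10 F-box genes with 2 probes above background, the brighter probe in black. The other probe lies nearer to 0 for Fbxl4, Fbxo8, Fbxo17, Fbxo44, Fbxw11 and Fbxw8, and further from 0 for Fbxw7, at -0.15.

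Among genes of the machinery that F-box proteins plug into, 1 passed the threshold. Of 44 genes for the SCF core, its ubiquitin-conjugating enzymes, neddylation, the COP9 signalosome and F-box genes with other names, 41 were on the array and 40 were tested. Their median was -0.005, with 0 higher and 1 lower past the threshold, or 2.5%, beside 2.75% of all genes. At an unadjusted p under 0.05 there were 2 higher and 7 lower of 40, beside 26.8% of all genes. Neither share exceeded that of all genes. The scaffold Cul1 had 0.02 ± 0.11, the adaptor Skp1 -0.12 ± 0.07 and the RING subunit Rbx1 0.11 ± 0.06 (limma, adjusted p of 0.864, 0.275 and 0.284). Cul7, the partner of Fbxw8, had 0.16 ± 0.05 (adjusted p = 0.16). The gene that passed was Glmn, which encodes glomulin, a protein that covers the Rbx1 surface where the conjugating enzyme docks. It fell on every array, with ratios of -0.52, -0.40 and -0.47, a mean of -0.46 ± 0.06, which is 72.5% of the level in control muscle (limma, adjusted p = 0.0416). Glmn passed in 8 of 17 alternatives, with adjusted p-values between 0.0231 and 0.26, and did not pass with any 1 array left out. The highest ratio belonged to Cand2, the muscle-enriched relative of the exchange factor Cand1 that frees Cul1 from one F-box protein for the next. It was picked out after its values were seen, and had 0.83, 0.48 and 0.42, a mean of 0.58 ± 0.22 (limma, adjusted p = 0.056). Its adjusted p was under the threshold in 5 of 18 alternatives.

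**Figure D4:**
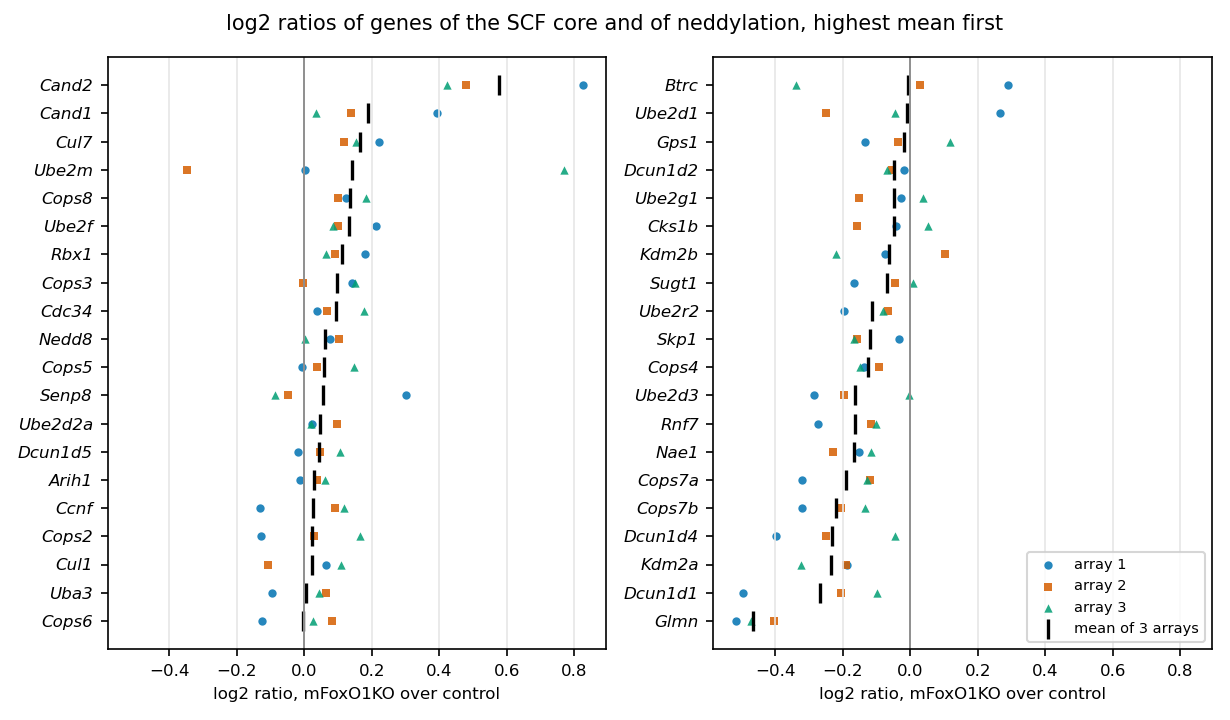
The log2 ratio of mFoxO1KO over control for each of the 40 tested genes of the SCF core and of neddylation, with 1 point per array and a bar at the mean. Cand2 at 0.58 and Glmn at -0.46 lie apart from the others at either end.

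Related families are given for comparison. The 5 atrophy-linked F-box genes left out by the rule had a median of -0.149 and a wider range: Fbxo31 had 0.35, Fbxo21 0.09, Fbxo30 -0.15, Fbxo40 -0.31 ± 0.03 (limma, adjusted p = 0.0616) and Fbxo32 -0.72 ± 0.50 (adjusted p = 0.104). The Asb genes, substrate receptors of a cullin 5 ligase, had a median of -0.134 over 14 tested of 18, with 12 of 14 means below 0, beside 8421 of 17460 for all genes, and 0 past the threshold. The Klhl genes, receptors of cullin 3, had a median of -0.098 over 27 tested of 35, with 1 higher and 1 lower past the threshold (7.41%), beside 2.75% of all genes. These medians and counts are descriptions, and the difference between the families was not tested.

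**Figure D5:**
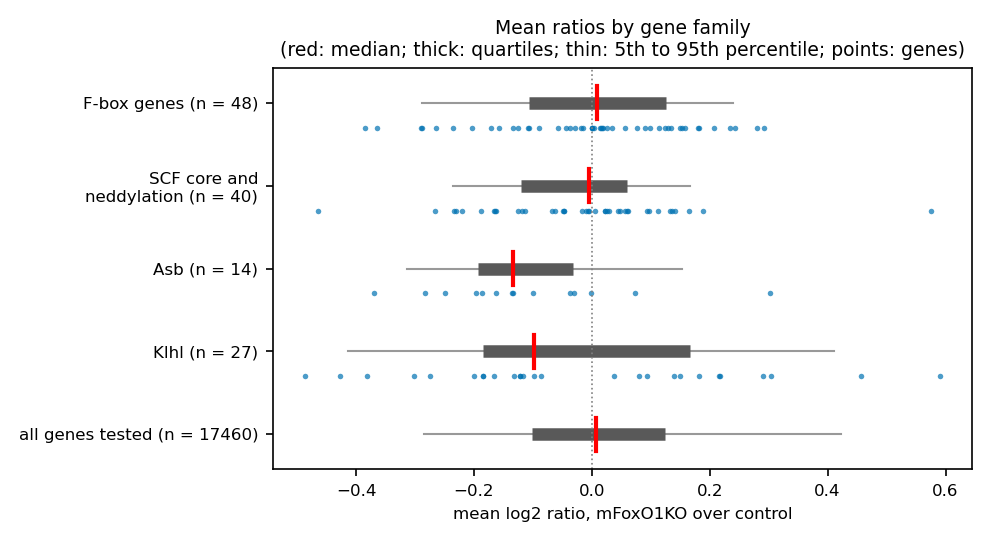
Mean log2 ratios of mFoxO1KO over control by gene family, with the median in red, quartiles as thick bars, the range between the 5th and 95th percentile as thin lines and 1 point per gene. The F-box genes have a median of 0.008 and the genes of the SCF core and of neddylation -0.005, while the Asb and Klhl medians lie at -0.134 and -0.098.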

How the data were processed

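RNA of 3 mFoxO1KO and 3 control muscles was measured on 3 arrays, from 0.2 µg per labelling reaction according to the labels. The deposited files are scanner output with 44397 spots per array. They give the authors' unnormalised median intensity of every spot and of the surface around it, per channel, with columns of software flags. A further deposited value is a log10 ratio of the processed red signal to the processed green one, per the file headers. Those name Feature Extraction 11.5.1.1 and the submitters' processing notes 9.3.2.1, so the version is unsettled. The headers name an older genome build, so positions are given only for RefSeq promoter windows.

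Work was done in R 4.3.3 with limma 3.58.1. Median signals went through normexp with an offset of 50, then loess on every array, to which control spots gave no weight. The software had marked 281 to 319 spots per array as non-uniform or outlying, and these were dropped. Values were averaged over a probe's spots. Probes had to exceed background (a share of at least 0.5 of their spots) on all 3 arrays in the red channel or on all 3 in the green. The brightest such probe stood for its gene. Accessions named 27508 of 39429 probes (69.77%) through RefSeq of GRCm38.p6; of the 92 F-box probes 58 were kept. The files lack the gene name column on which F-box genes were to be matched, so the RefSeq symbol took its place. RefSeq holds 79 matching symbols, of which 5 were left out by the rule and 3 had no probe.

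Each gene's log2 ratio was tested against 0 by limma's moderated test (two-sided), adjusted after Benjamini and Hochberg over all 17460 genes. Channel levels are log2 intensities after loess and quantile scaling of average intensity. The fit was tested on simulated data. It recovered 0 of 50 genes changed 1.25-fold, 16 of 50 at 1.5-fold, 41 of 50 at 2-fold and 47 of 50 at 4-fold. Of its 106 calls, 2 were false. The simulation shuffled the SDs between genes, used independent noise and changed only 50 genes of 17460 at each size. It held no dye effect of single probes and no difference in cell content, so recovery on the real arrays may differ. Members and gene lists were chosen with earlier results of these data known. Genes named are the 8 highest and 8 lowest, up to 4 of each role group by smallest p, genes with disagreeing probes, Cul1, Skp1, Rbx1, core genes past the threshold and Foxo1; others were chosen after their values were seen. One of the F-box genes tested enters all counts and medians, and its own values are not reported here. Median Cy5 signals were 92 to 94.5 over backgrounds of 50 to 52, and median Cy3 signals 87 to 93 over 35.5 to 38; the 3 arrays limit the precision. The RNAs are paired by the shared array, as the labels give it, and the ratio carries that pairing. Alternatives covered background, signals, normalisation, filter, probe choice, variance model, separate channels and each array left out.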

Additional observations from a re-analysis of the deposited data

How the results depend on the processing

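The F-box count of 0 was kept in 15 of 18 alternatives. It was 1 with the software's processed signals and 1 with scale normalisation, Fbxl22 lower each time, and 3 in a separate-channel fit with the replicate block, where Fbxl22 (-0.365, adjusted p 0.0318), Fbxo2 (0.281, 0.0376) and Fbxw8 (0.243, 0.0483) passed. Leaving out each array gave 0 to 0. The F-box median of 0.008 became 0.023 without background correction, -0.011 with processed signals, -0.051 with the deposited log ratio and 0.181 with median centring, where all genes had 0.156, and -0.005 to 0.011 with an array left out.

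All genes past the threshold, 481, numbered 254 with offset 16, 212 with the deposited log ratio, 1204 with median centring (1153 higher), 830 with scale normalisation, 55 with both channels above background, 746 without a filter, 9 above the median intensity, 1635 with and 219 with no replicate block, and 49 to 405 with an array left out. The SCF and neddylation count of 1 was 0 with processed signals, the deposited log ratio, both channels above background, genes above the median intensity, averaged probes, no replicate block and each array left out (0 to 0). It was 2 with scale normalisation, no filter, every probe on its own, an intensity trend and the replicate block, and with median centring it was 1, Cand2 in place of Glmn. The cause was not tested. Dim genes have compressed ratios at offset 50: with the deposited log ratio Fbxl22 had -0.773 and Fbxo2 0.581. Fbxo2, Fbxo6, Fbxo17, Fbxo27 and Fbxo44 stayed above 0 in every alternative run for them, with Fbxo17 at 0.01 without array 1. Alternatives that change only the filter, the variance model or the channel fit leave these ratios as they were. In those the sign could not change, and median centring raises all genes.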
